A study of Homo sapiens with 6 samples.

Results

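Interferon-stimulated genes and the sensors of foreign nucleic acid upstream of them were followed in A2058 melanoma cells given vitamin C. The group was drawn up by name, with earlier results of these data known. It holds 56 genes of the 60675 gene identifiers in the count table, of which 52 passed the filter on low counts among 16353 genes tested. It was divided by role into sensors and adaptors, interferon receptors, transcription factors, RNA-binding effectors, membrane effectors, GTPases and other effectors, ubiquitin-like and PARP proteins, and chemokines with immunoproteasome subunits.

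A2058 is an established line from metastatic human melanoma, and every library came from this 1 line. The control group was 3 wells without vitamin C and the treated group was 3 wells with it, in medium whose own formula lacked vitamin C and which was renewed daily. The sample labels give the treatment as 100 µM for 48 h, while the protocol text attached to the same samples names sodium ascorbate at 50 µM. The study's methods give the dose and time of the sample labels, with L-ascorbic acid as the compound. Ribosomal RNA was depleted from total RNA before sequencing. With 3 wells of a single line per group, p-values describe the spread between these wells, which may be technical.

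Cells detect viral or displaced RNA through helicases such as RIG-I and MDA5, which signal through MAVS, and detect DNA through cGAS and STING. Type I interferon made in response binds the receptor chains IFNAR1 and IFNAR2 and activates a factor built from STAT proteins and IRF9, which binds the interferon-stimulated response element (ISRE) in the promoters of antiviral genes. Interferon gamma acts through IFNGR1 and IFNGR2 and a different element, the gamma-activated site (GAS). Many of the sensors and factors are themselves targets, so the pathway raises its own components. Ascorbate is a cofactor of TET enzymes, which oxidize methylated cytosine, and the transcriptome comparison asked which genes change when it is supplied.

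The letters of the promoters show which of these genes hold a match to the core of an ISRE near their start. A match was not taken as a working site. RefSeq promoter windows on GRCh38.p14, running from 250 bases before to 50 bases after each gene's start, were given for 40 of the 56 genes. The core of the ISRE was searched on both strands as GAAA, any 2 bases and GAAA again, which reads TTTC, any 2 bases and TTTC when the match lies on the opposite strand, and overlapping matches were both kept. Stretches of 60 bases around the first match are shown, 5′ to 3′ along the gene's strand and with each match in capitals, for 6 genes that were higher with vitamin C and for 3 genes with a match that were not called.
CXCL10: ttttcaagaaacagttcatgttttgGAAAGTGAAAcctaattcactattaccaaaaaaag
BST2: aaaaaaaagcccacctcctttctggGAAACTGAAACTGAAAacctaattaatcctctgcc
IFI44L: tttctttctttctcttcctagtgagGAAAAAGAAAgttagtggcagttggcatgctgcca
MX1: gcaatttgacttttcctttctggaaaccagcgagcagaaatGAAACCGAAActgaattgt
IFIT1: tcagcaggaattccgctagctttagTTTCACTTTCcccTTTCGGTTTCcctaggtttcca
IFIH1: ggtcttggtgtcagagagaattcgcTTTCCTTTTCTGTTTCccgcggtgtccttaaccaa
OAS3: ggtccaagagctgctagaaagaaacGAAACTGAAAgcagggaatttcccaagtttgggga
EIF2AK2: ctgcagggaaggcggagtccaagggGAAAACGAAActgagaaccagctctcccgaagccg
IFITM3: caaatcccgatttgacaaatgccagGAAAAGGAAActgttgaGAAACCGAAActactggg
The first 6 belong to genes that were higher. The CXCL10 stretch is at chr4:76023684-76023743, minus strand, and that of BST2 at chr19:17405726-17405785, minus strand. Those of IFI44L and MX1 are at chr1:78620259-78620318, plus strand, and chr21:41420528-41420587, plus strand. For IFIT1 and IFIH1 the positions are chr10:89392482-89392541, plus strand, and chr2:162318809-162318868, minus strand. The last 3 stretches belong to genes that were not called, OAS3 at chr12:112938306-112938365, plus strand, EIF2AK2 at chr2:37156952-37157011, minus strand, and IFITM3 at chr11:320878-320937, minus strand. BST2 and IFIH1 carry overlapping matches that share 4 bases, and IFIT1 and IFITM3 carry a second, separate match within the stretch.

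Sequencing depth was 16248869 to 41884588 counts per control library and 20944956 to 32549362 per vitamin C library. Values are given as CPM, which are read counts divided by library size with TMM factors, and 1 count corresponded to 0.024 to 0.0619 CPM. Vitamin C replicate 3 stood farther from the other vitamin C libraries than those did from each other on the first principal components, and counts of members called are given without it where it matters. The line's label was checked against melanocyte markers: all 10 listed passed the filter, and their summed level was 2566 to 2678 CPM in control and 2393 to 2509 CPM with vitamin C. Of these markers 5 rose and 1 fell: the sum follows DCT, which fell from 1515 to 1234 CPM on average, while MLANA rose 10.4-fold, GPR143 2.35-fold and PMEL 1.66-fold.

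With vitamin C many genes of the group rose, by small amounts. A gene was called when its adjusted p (edgeR's quasi-likelihood test, Benjamini-Hochberg adjustment over all 16353 genes) was under 0.05. Of the 52 members tested, 22 rose, 1 fell and 29 were not called. Thus 42.3% of members tested rose, where 6.09% of all genes tested were called higher, and 1.92% fell, where 5.09% of all genes were called lower. In either direction 44.2% of members and 11.2% of all genes were called. DESeq2 called 21 members higher and none lower, where it called 10.4% of all genes, 5.72% higher and 4.67% lower. Without vitamin C replicate 3, 21 members were higher and 1 lower, and 7.08% of all genes tested in that fit were higher. Leaving out 1 library at a time gave 17 to 21 members higher, where 3.25% to 7.08% of all genes tested were higher, and the calls of OAS1, ISG20, MX2, GBP1, SAMD9 and DTX3L were each lost in at least 3 of these 6 fits, while the other 17 were kept in all of them.

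The median log2 fold change of the 52 members was 0.26, against -0.0037 over all genes tested. Measured well by well against the control mean, the members' median was 0.253, 0.182 and 0.246 in vitamin C replicates 1, 2 and 3 (SD 0.0392). The shift went beyond the genes that were called: 45 members, or 86.5%, had a positive log2 fold change, where 49.1% of all genes did, and this held for 23 of the 29 members that were not called. CXCL10, IRF9 and OAS2, all positive, met the filter on the vitamin C libraries alone but not on the control libraries alone. The positive share was not computed without them. In 28 members all vitamin C wells lay above all control wells, in 1 all lay below, and in 23 the groups overlapped, while 30.6% of all genes tested were separated, 15.6% upward and 14.9% downward. Together the members took 2696 to 2753 CPM of the control libraries and 2870 to 3058 CPM of the vitamin C libraries.

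**Figure D1:**
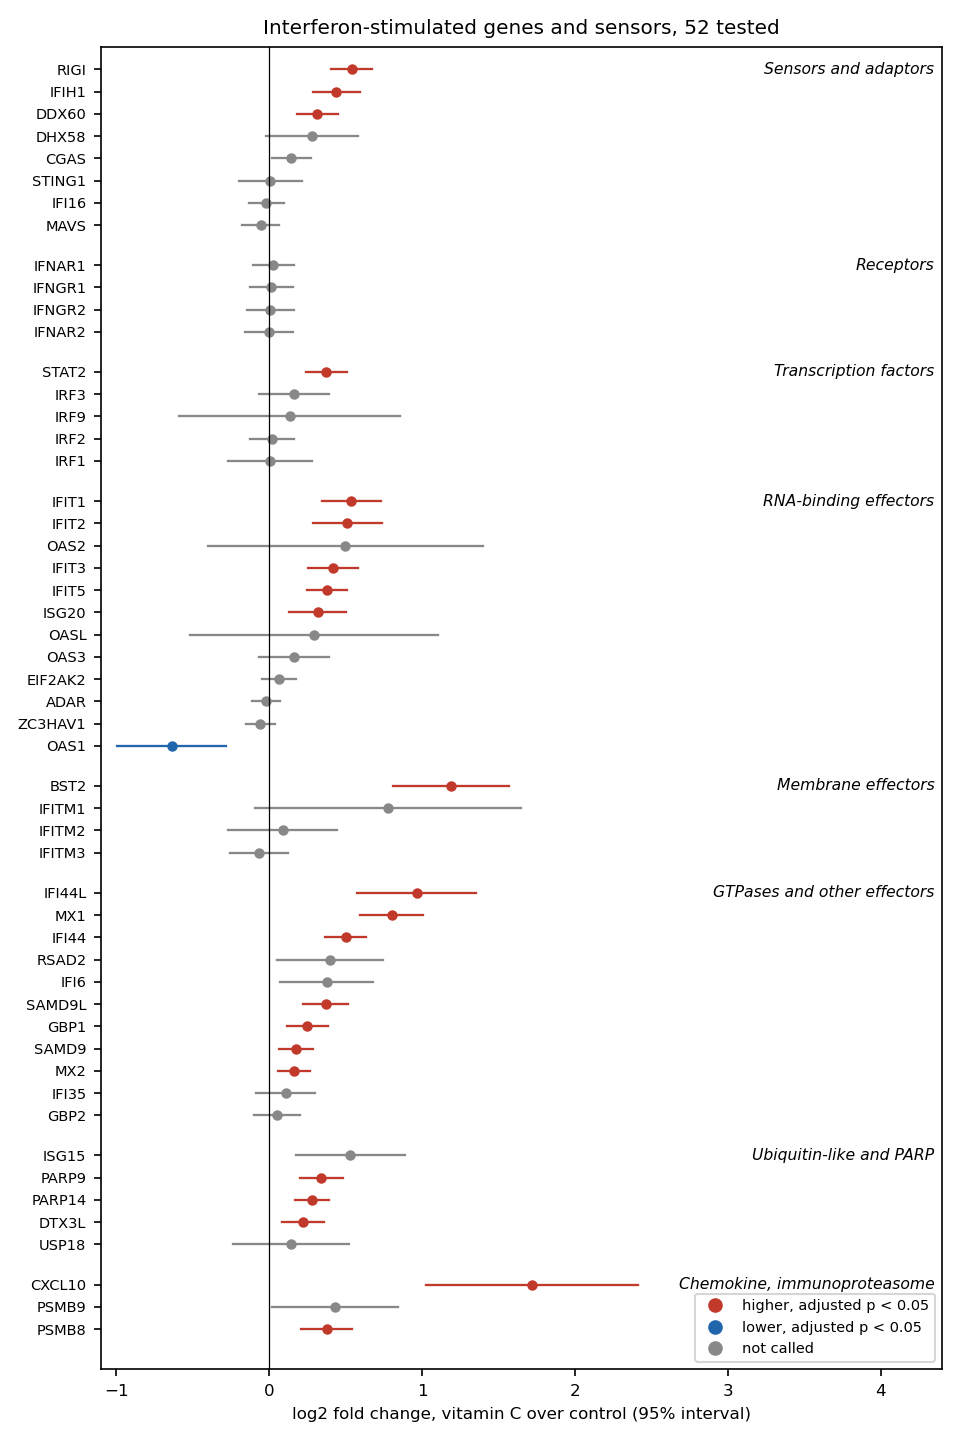
Log2 fold change of each of the 52 members tested, vitamin C over control, by role; points are edgeR estimates from 3 wells per group and lines their 95% intervals. The 22 red points lie from 0.16 to 1.72, the blue point is OAS1 at -0.64, and the 4 receptors sit at 0.

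**Figure D2:**
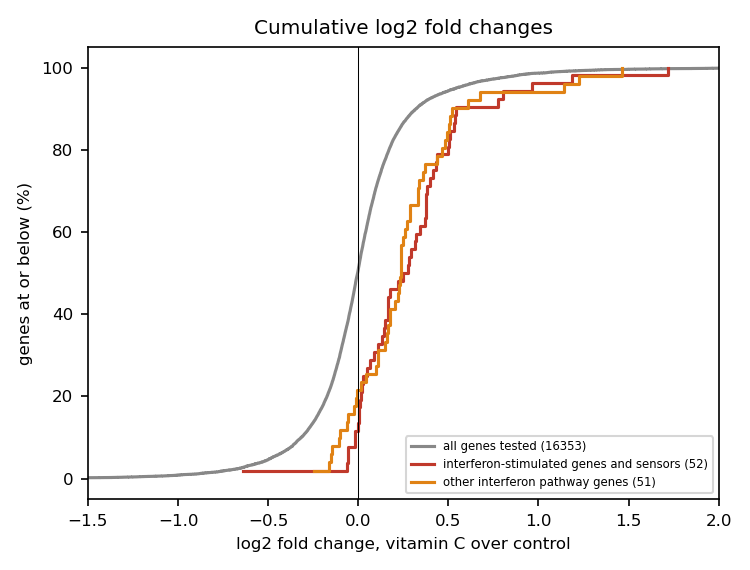
Cumulative share of genes (percent) at or below each log2 fold change, drawn from -1.5 to 2, for all 16353 genes tested, the 52 members and 51 other interferon pathway genes. The curves of both lists lie to the right of all genes through most of their range, with medians of 0.26 and 0.23 against -0.0037. Both lists were written with earlier results of these data known.

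The changes of the 22 genes that rose ran from 0.16 (MX2) to 1.72 (CXCL10), with a median of 0.38, which is 1.30-fold. Only CXCL10 and BST2 rose by at least 2-fold, and 18 of the 22 rose by less than 1.5-fold. Of these 2, CXCL10 passed the filter on low counts only through the vitamin C libraries. A 2-fold change was reached by 9.09% of these members and by 13.8% of all 996 genes called higher.

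Among the sensors and adaptors, 3 of 8 rose, and all 3 are helicases of the RNA branch. RIGI, also named DDX58, encodes RIG-I, the sensor of short double-stranded RNA with a triphosphate end. It was at 26.7, 25.7 and 25.3 CPM in control replicates 1, 2 and 3 and at 37.6, 36.8 and 38.9 CPM in vitamin C replicates 1, 2 and 3. The groups were far apart for their spread, and the log2 fold change was 0.54 (SE 0.0616, adjusted p = 9.5e-05), the smallest p of any member. IFIH1 encodes MDA5, the sensor of long double-stranded RNA. It stood at 25.7, 25.6 and 25.3 CPM in the controls and at 37.5, 34.6 and 31.8 CPM with vitamin C, in the same order of replicates, as for all genes that follow. Its controls were nearly equal and the vitamin C wells, all higher, differed more among themselves. The log2 fold change was 0.44 (SE 0.0710, adjusted p = 0.0013). DDX60, a helicase related to these sensors, read 33.5, 33.8 and 37.3 CPM in control wells and 43.6, 43.5 and 42.4 CPM in vitamin C wells. It rose by a log2 fold change of 0.31 (SE 0.0622, adjusted p = 0.0052), with no overlap.

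The third helicase of the RIG-I family, DHX58 (LGP2), which lacks the signalling domain of the other two, had a log2 fold change of 0.28 and an interval from -0.02 to 0.58 at 3.48 ± 0.196 CPM in control and 4.19 ± 0.218 CPM with vitamin C (SD, n = 3). Its adjusted p was 0.234 in edgeR's test although the groups did not overlap. CGAS, the cytosolic DNA sensor, also separated the groups without passing the test, at 39.1 ± 0.406 and 43.3 ± 2.30 CPM (SD, n = 3) and a log2 fold change of 0.15. The adaptors and the nuclear DNA sensor IFI16 lay near 0. The log2 fold change was -0.06 for MAVS (interval -0.18 to 0.06), 0.01 for STING1 (-0.20 to 0.22) and -0.02 for IFI16 (-0.13 to 0.10). IFI16 had the highest length-scaled level of all members, 506 TPM in control and 502 TPM with vitamin C.

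None of the 4 interferon receptor chains passed the test, and all overlapped between groups. The type I chains IFNAR1 and IFNAR2 had log2 fold changes of 0.03 (interval -0.11 to 0.16) and 0.00 (-0.16 to 0.16). For the interferon gamma chains IFNGR1 and IFNGR2 the values were both 0.01, with intervals of -0.13 to 0.15 and -0.15 to 0.16. All 4 were well above the filter, from 19.6 CPM (IFNAR2) to 102 CPM (IFNAR1) in control, and the intervals leave out changes as large as the median of the genes that rose. Of the exonic bases of IFNAR2, 44.2% are shared with another gene on the same strand and 39.1% with another on the opposite strand. For IFNGR2 12.8% are shared on the opposite strand. The strand setting of the counting is not known, so the counts of both genes are less certain.

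Of the 6 transcription factors, STAT2 was the one that rose. STAT2, a subunit of the factor that binds the ISRE, was at 38.6, 40.0 and 35.8 CPM in control and 47.2, 50.3 and 51.3 CPM with vitamin C. The wells separated cleanly, with a log2 fold change of 0.37 (SE 0.0627, adjusted p = 0.0017). Its partner IRF9 was close to the filter, with 24, 16 and 6 counts in control and 15, 22 and 10 with vitamin C, and its log2 fold change of 0.13 had an interval from -0.59 to 0.85. Reads of IRF9 are also uncertain because 48.4% of its exonic bases are annotated to an overlapping gene on the same strand. IRF1, an early target of interferon gamma, and IRF2, its antagonist, had log2 fold changes of 0.01 (interval -0.27 to 0.28) and 0.02 (-0.12 to 0.16). IRF3, which acts below MAVS and STING, had 0.16 (-0.06 to 0.39). On the opposite strand, 22.0% of the exonic bases of IRF1 and 19.3% of those of IRF3 are covered by other genes, whose reads may be mixed in. IRF7, the amplifier of interferon alpha genes, did not pass the filter, with 5, 6 and 3 counts in control and 10, 13 and 7 with vitamin C.

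The RNA-binding effectors split by family. All 4 IFIT genes of the group rose. They belong to a family that includes proteins that bind viral RNA ends, and they lie on chromosome 10 between 89283694 and 89421001 (GRCh38). IFIT1B, which lies among them but is not a member, had 1 count, in control replicate 2, and was not tested. IFIT1 was at 10.3, 11.4 and 10.9 CPM in control and 15.9, 14.4 and 17 CPM with vitamin C. IFIT2 was at 8.67, 10.8 and 8.85 CPM against 13.6, 12.5 and 14.5 CPM. These had the larger rises of the family, with log2 fold changes of 0.54 (SE 0.0897, adjusted p = 0.0017) for IFIT1 and 0.51 (SE 0.105, adjusted p = 0.0068) for IFIT2, and the groups were apart in both. IFIT3 read 25.8, 24.3 and 27.5 CPM in control wells and 36.9, 31.6 and 34.8 CPM in vitamin C wells. IFIT5 read 47.4, 46.8 and 53.3 CPM against 64.9, 62.2 and 64.3 CPM. Again every vitamin C well exceeded every control well, with log2 fold changes of 0.42 (SE 0.0753, adjusted p = 0.0030) for IFIT3 and 0.38 (SE 0.0608, adjusted p = 0.0013) for IFIT5.

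The OAS family, whose enzymes make the second messenger that switches on RNase L, held the only member that fell. OAS1 was at 3.48, 3.24 and 3.71 CPM in control and at 2.19, 2.01 and 2.53 CPM with vitamin C. All vitamin C wells lay below all control wells, and the log2 fold change was -0.64 (SE 0.166, interval -1.0 to -0.28, adjusted p = 0.025). The call was lost with DESeq2 (adjusted p = 0.0505) and in 5 of the 6 fits that left out 1 library, where adjusted p ran from 0.0144 (without vitamin C replicate 3) to 0.105 (without vitamin C replicate 2). OAS3, its neighbour on chromosome 12, had a log2 fold change of 0.16 (interval -0.06 to 0.39). OAS2 and OASL were near the limit of detection, below 1 CPM in all libraries, with log2 fold changes of 0.50 (-0.40 to 1.4) and 0.29 (-0.52 to 1.11).

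ISG20, an exonuclease that degrades RNA, rose from 11.0, 10.3 and 11.1 CPM to 12.7, 13.5 and 14.3 CPM. The log2 fold change was 0.32 (SE 0.0863, adjusted p = 0.031), and this call too was lost with DESeq2 (adjusted p = 0.0559). The most abundant effectors of this role were not called. EIF2AK2 (PKR), the kinase that stops translation, had a log2 fold change of 0.06 (interval -0.05 to 0.17), the editing enzyme ADAR -0.02 (-0.11 to 0.07) and the zinc finger protein ZC3HAV1, which directs viral RNA to decay, -0.06 (-0.15 to 0.04). ADAR and ZC3HAV1 followed IFI16 in length-scaled level, at 139 and 107 TPM in control.

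Of the 4 membrane effectors, which act on enveloped virus at entry or release, BST2 rose. BST2 encodes tetherin, which holds budding virus at the cell surface. It was at 3.29, 3.16 and 2.23 CPM in control and at 8.41, 6.08 and 5.92 CPM with vitamin C. Even the lowest vitamin C well was well above the highest control well, and the log2 fold change of 1.19 (SE 0.175, adjusted p = 7.0e-04) was the second largest of the group. The IFITM proteins block fusion of virus with the cell. IFITM1 had 19, 18 and 19 counts in control and 29, 24 and 39 with vitamin C, in libraries of unequal depth, and its log2 fold change of 0.78 had an interval from -0.09 to 1.65. IFITM2 and IFITM3 gave 0.09 (interval -0.27 to 0.44) and -0.06 (-0.25 to 0.12). The IFITM genes overlap and resemble each other, with 27.5% of the 100-base stretches of IFITM1 and 18.2% of those of IFITM2 found in another gene, so their reads cannot be fully separated. Another gene on the opposite strand covers 21.3% of the exonic bases of IFITM3.

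The GTPases and other effectors held the most genes that rose, 7 of 11 tested. MX1, a dynamin-like GTPase that blocks influenza and other viruses, was at 19.4, 17.4 and 16.5 CPM in control and at 33.8, 26.7 and 33.4 CPM with vitamin C. The wells separated, with a log2 fold change of 0.80 (SE 0.0965, adjusted p = 1.4e-04). Its neighbour on chromosome 21, MX2, which acts on HIV at the nuclear pore, changed far less. MX2 read 109, 102 and 105 CPM in control wells and 118, 115 and 120 CPM in vitamin C wells. These groups did not overlap either, but the log2 fold change was 0.16 (SE 0.0480, adjusted p = 0.045), the smallest of the genes called.

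IFI44L and IFI44, adjacent genes on chromosome 1 whose products restrain viral growth, both rose. IFI44L was at 1.99, 2.23 and 1.73 CPM in control and 4.11, 3.28 and 4.49 CPM with vitamin C. IFI44 was at 37.6, 34.4 and 34.0 CPM against 52.1, 50.2 and 48.3 CPM. Neither gene had overlapping groups, and the log2 fold changes were 0.96 (SE 0.180, adjusted p = 0.0036) for IFI44L and 0.50 (SE 0.0627, adjusted p = 1.9e-04) for IFI44. The paired antiviral factors SAMD9 and SAMD9L, which lie next to each other on chromosome 7, rose too. SAMD9L read 27.0, 29 and 26.4 CPM in control and 37.8, 35.2 and 33.4 CPM with vitamin C. SAMD9 read 97.1, 98.4 and 105 CPM against 116, 108 and 114 CPM. The wells of each gene stayed apart, although in SAMD9 by little, and the log2 fold changes were 0.37 (SE 0.0690, adjusted p = 0.0037) for SAMD9L and 0.18 (SE 0.0515, adjusted p = 0.043) for SAMD9.

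GBP1, a guanylate-binding protein that attacks the membranes of intracellular microbes, was at 28.7, 28.6 and 30.4 CPM in control and 35.7, 33.9 and 34.6 CPM with vitamin C. It rose without overlap, by a log2 fold change of 0.25 (SE 0.0620, adjusted p = 0.020), while GBP2 had 0.05 (interval -0.10 to 0.20). RSAD2 (viperin), an enzyme that makes a chain-terminating nucleotide, and IFI6 separated the groups but were not called, with log2 fold changes of 0.40 (0.05 to 0.74) and 0.38 (0.07 to 0.68). In IFI6 the highest value, 16.8 CPM, came from vitamin C replicate 3, and the other vitamin C wells were at 11.3 and 11.4 CPM against 9.08 to 10.9 CPM in control. IFI35 had a log2 fold change of 0.11 (-0.08 to 0.30). IFI27 did not pass the filter, with at most 4 counts in any library.

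Of the ubiquitin-like and PARP proteins, 3 of 5 tested rose, and they are the 3 whose genes lie together on chromosome 3. DTX3L, a ubiquitin ligase, and its partner PARP9 are transcribed in opposite directions from one stretch, and PARP14 is a mono-ADP-ribosyltransferase. PARP9 was at 42.6, 36.7 and 39.5 CPM in control and 51.5, 48.5 and 50.9 CPM with vitamin C. PARP14 was at 121, 123 and 124 CPM against 158, 147 and 141 CPM. Both had separate groups, with log2 fold changes of 0.34 (SE 0.0657, adjusted p = 0.0044) for PARP9 and 0.28 (SE 0.0509, adjusted p = 0.0030) for PARP14. DTX3L read 77.9, 79.8 and 75.6 CPM in control and 98.5, 91.7 and 81.8 CPM with vitamin C. Its vitamin C wells spread down to just above the highest control well, and the log2 fold change was 0.22 (SE 0.0642, adjusted p = 0.041). ISG15, the ubiquitin-like modifier, narrowly missed the test. It read 2.86, 2.31 and 2.97 CPM in control and 3.40, 3.98 and 4.34 CPM with vitamin C, with a log2 fold change of 0.53 (interval 0.17 to 0.89, adjusted p = 0.056 in edgeR's test). USP18, which removes ISG15 from proteins and damps receptor signalling, had 0.14 (interval -0.24 to 0.52), and TRIM22, a ubiquitin ligase, had at most 6 counts in any library and was not tested.

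CXCL10, the chemokine that draws T cells through CXCR3, had the largest log2 fold change of the group from a very low level. It had 12, 9 and 4 counts in control and 24, 33 and 21 with vitamin C, or 0.288, 0.335 and 0.248 CPM against 0.939, 1.00 and 1.00 CPM. The groups were far apart, and the log2 fold change was 1.72 (SE 0.322, interval 1.03 to 2.41, adjusted p = 0.0037). CXCL10 passed the filter only through the vitamin C libraries, so a gene at its control level would not have been tested without a rise. The other chemokine, CCL5, had at most 5 counts in any library. PSMB8, which replaces a constitutive subunit in the immunoproteasome, was at 25.4, 21.8 and 23.9 CPM in control and 32.4, 28.7 and 31.7 CPM with vitamin C. It rose without overlap by 0.38 on the log2 scale (SE 0.0770, adjusted p = 0.0067). On the opposite strand 20.6% of its exonic bases are covered by another gene, and as the strand setting of the counting is not known, reads from the 2 strands may be mixed. PSMB9, its neighbour and fellow subunit, had a log2 fold change of 0.43 (interval 0.02 to 0.84, adjusted p = 0.171 in edgeR's test), with overlapping groups.

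**Figure D3:**
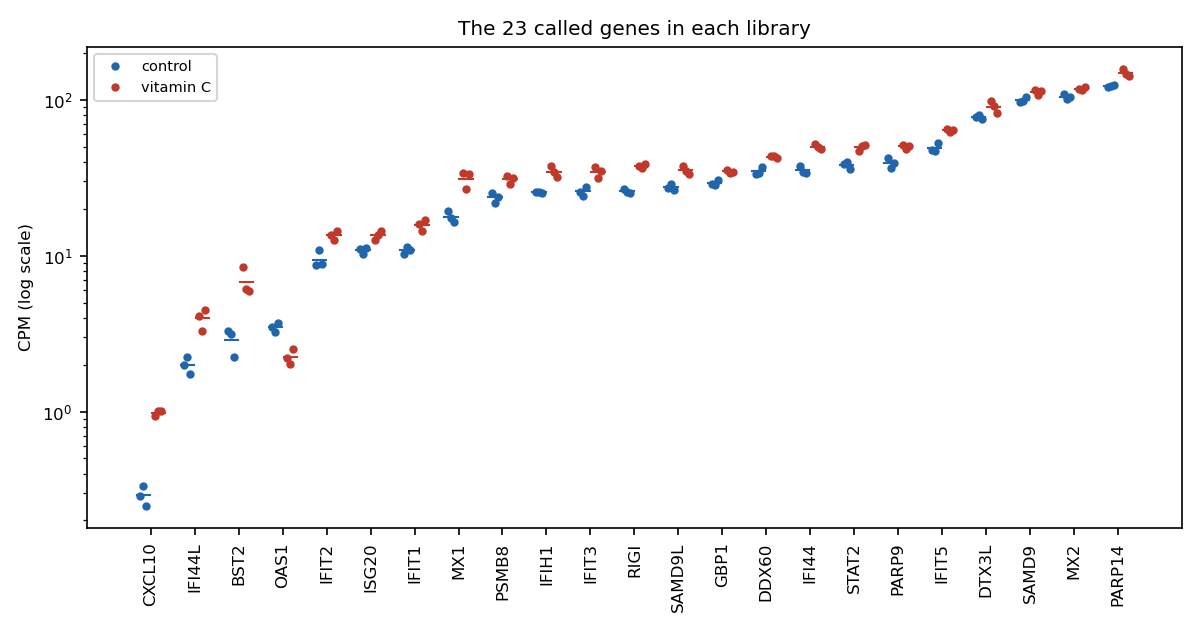
Level of the 23 called members in each of the 6 libraries, in CPM on a log axis, 1 point per library. The vitamin C points lie above the control points in 22 genes and below them in OAS1.

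As a set, the members with the highest control CPM had the smallest median log2 fold change. Of members under 20 CPM in control, 7 of 25 rose, with a median log2 fold change of 0.32, and of those from 20 to 100 CPM 12 of 18 rose, with a median of 0.33. At 100 CPM or more, 3 of 9 rose and the median was 0.03. Over all genes tested, 4.72%, 7.7% and 7.94% were called higher in these ranges. Across the 52 members, Spearman's rho of control CPM with log2 fold change was -0.443, and across 12662 protein-coding genes it was -0.0285. CPM is not scaled by gene length, and with control TPM the members' rho was -0.375. These points share libraries, so rho is given as a description. The control level enters both measures, and the low members also have the widest intervals. With the filter required in both groups, a choice made after the data were seen, 48 members were tested, 21 rose, 1 fell and the median was 0.24.

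**Figure D4:**
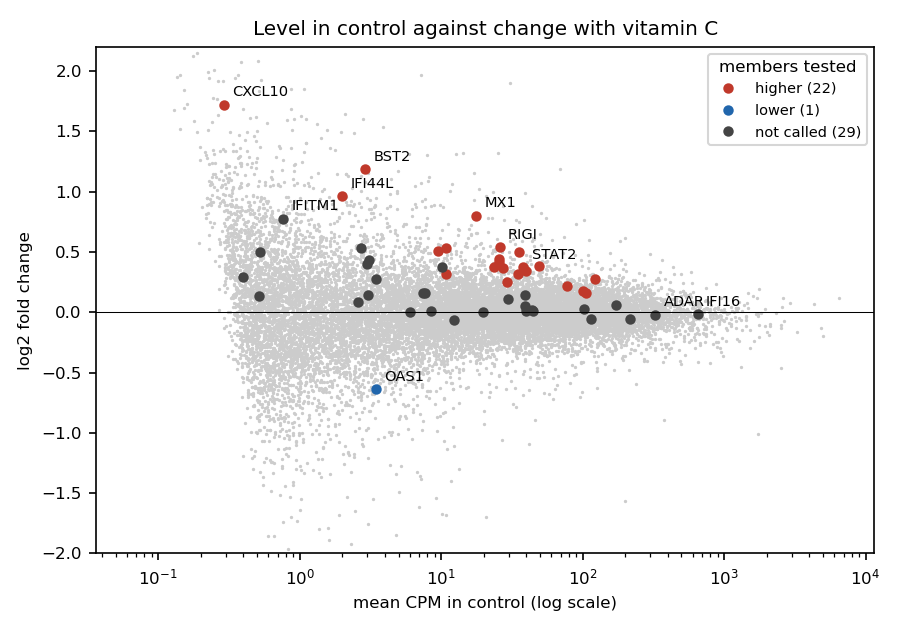
Mean control level (CPM, log axis) against log2 fold change for all genes tested (grey) and the members (red higher, blue lower, black not called), drawn from -2 to 2.2. CXCL10, BST2, IFI44L and MX1 rise most from low or middle levels, while IFI16 and ADAR, the most abundant, lie at 0.

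The ISRE core stood in 22 of the 40 promoter windows of the group, or 55.0%, where it stood in 3.65% of all 27305 windows and 3.0% of the windows of all genes tested. Of the members that rose and had a window, 15 of 20 held a match, or 75.0%, and of those not called 6 of 18, or 33.3%. The 5 that rose without a match in their window were RIGI, STAT2, SAMD9L, PARP9 and PSMB8. The window of PARP9 (chr3:122564735-122565034) did not reach that of DTX3L (chr3:122564088-122564387), which held a match. The 6 not called with a match were OAS3, EIF2AK2, IFITM1, IFITM3, IFI6 and ISG15. No difference between these shares was tested, and a match is a description of the letters. The window of OAS1 held no match to the ISRE core. Among genes tested outside the 2 interferon lists, those with a match were called higher in 9.06% of 298, which is 27 genes, and those without in 6.5% of 10777. Called lower were 4.7% with a match and 5.62% without. For the GAS in the same genes, 7.44% of 712 with a match and 6.5% of 10363 without were called higher. These differences were not tested either.

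Matches lay on either side of the start. The core of MX1 ran from 11 to 20 bases past the RefSeq start, and that of CXCL10 lay 221 to 212 bases before it. The GAS, searched as TTC, any 3 bases and GAA, which is its own reverse complement, stood in 10 of the 40 windows, or 25.0%, against 7.88% of all windows. It was found in 3 of the 20 members that rose (DDX60, BST2 and PARP14) and in 5 of the 18 not called, among them IRF1 and IRF9, and in the window of OAS1.

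**Figure D5:**
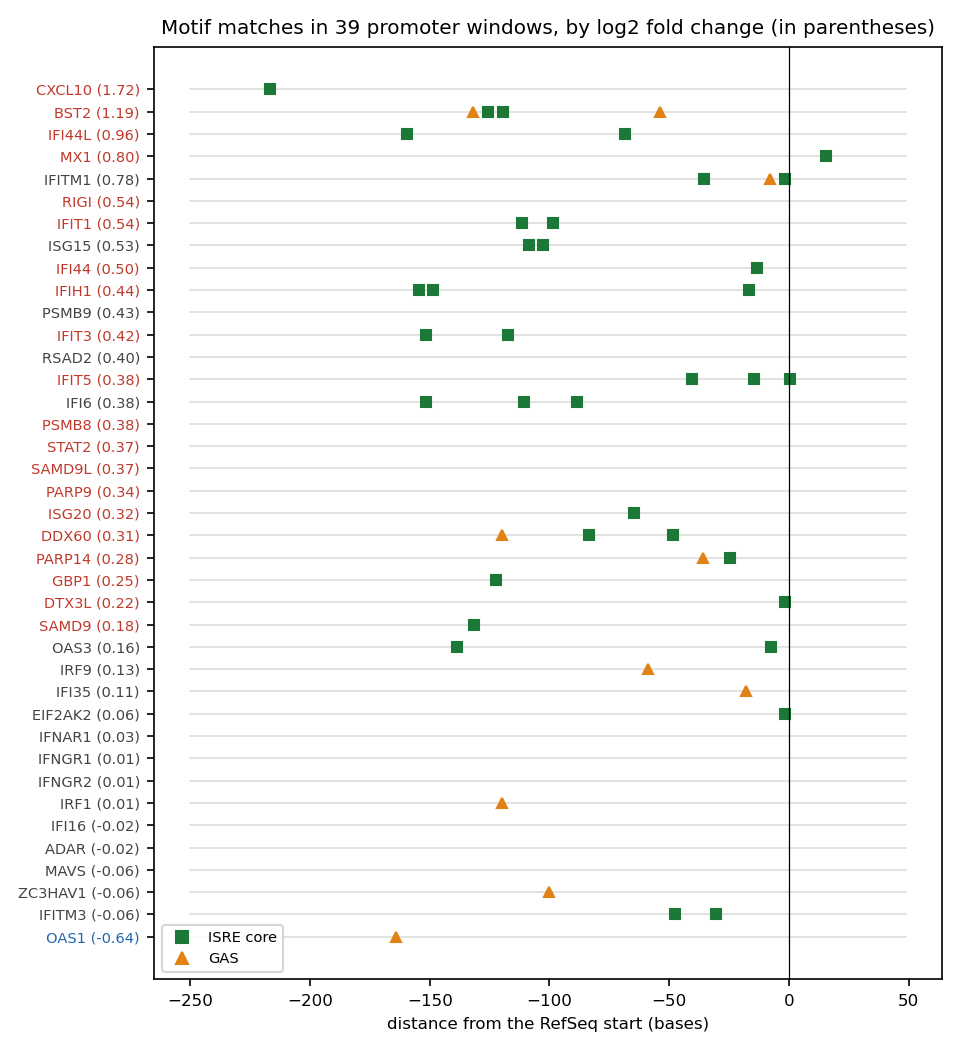
Positions of ISRE core (squares) and GAS (triangles) matches in the promoter windows of 39 members tested, in bases from the RefSeq start, ordered by log2 fold change, which stands in parentheses. Of 20 members that rose, named in red, 15 hold an ISRE core match, and the receptor chains near 0 hold none.

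Other genes of the interferon pathway, 66 listed and 51 tested, were counted in the same way. This list was also written with earlier results of these data known, so its shares are a description and not independent support. Of those tested 20 rose, or 39.2%, where 6.09% of all genes did, none fell, and 31 were not called, with a median log2 fold change of 0.23. With DESeq2 17 were higher, where 5.72% of all genes tested were. Without control replicate 1, 2 or 3 the count was 12, 12 or 11, where 3.59%, 3.41% or 3.25% of all genes tested were higher. XAF1 passed the filter only through the vitamin C libraries, and 19 rose with the filter required in both groups. The 10 with the smallest p included APOL6 at 0.61 (adjusted p = 2.3e-05), GBP3 at 0.50 (adjusted p = 1.3e-04) and EPSTI1 at 1.14 (adjusted p = 0.0011). TLR3, the endosomal receptor of double-stranded RNA, rose from 12.7, 12.8 and 12.5 CPM to 17.3, 17.4 and 18.4 CPM, a log2 fold change of 0.48 (adjusted p = 0.0011). APOL1 at 1.46, RTP4 at 0.67, CMPK2 at 0.52, PARP10 at 0.46, TDRD7 at 0.36 and PLSCR1 at 0.26 made up the rest. CMPK2 lost its call in 3 of the 14 alternatives, those without control replicate 2 (adjusted p = 0.0713 in edgeR's test), vitamin C replicate 1 (0.0523) or vitamin C replicate 2 (0.0527). The kinases JAK1 and TYK2, which carry the signal from the receptors, were not called, with log2 fold changes of 0.11 and 0.22.

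The interferon ligands that were listed were hardly present. Other interferon genes were not looked up, and IFNA1 was the only interferon alpha gene listed. IFNB1 had 0 counts in 5 libraries and 2 in vitamin C replicate 3, IFNA1 had 2 counts in control replicate 1 only, and IFNG had 1 count in vitamin C replicate 3 only. The type III gene IFNL1 had a single count, in control replicate 1. IFNE, with 1, 6 and 4 counts in control and 5, 11 and 6 with vitamin C, had the highest counts among the ligands named here. A change in the transcripts of these listed ligands was not detectable at this depth, where 3 counts correspond to 0.072 to 0.186 CPM.

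Markers of other cell types summed to far less than the melanocyte markers, and some moved with the treatment. Of 14 leukocyte markers 5 passed the filter, with a summed level of 13.78 to 15.27 CPM in control and 16.08 to 17.48 CPM with vitamin C. LAPTM5 rose and LYZ fell among them. The pan-leukocyte gene PTPRC (CD45) had 21, 32 and 14 counts in control and 14, 18 and 13 with vitamin C and was not called. CD53, CD52 and TYROBP had at most 1 count in any library, and none of the 14 was at 0 in all libraries. Of 8 fibroblast markers 6 passed, 3 of which rose, and the sum was 10.81 to 13.61 CPM in control and 16.35 to 19.67 CPM with vitamin C. Those that rose were POSTN (3.09-fold), PDGFRB (3.02-fold) and COL3A1 (1.69-fold). Of 6 epithelial markers 2 passed and 1 fell, with sums of 61.66 to 66.09 CPM and 54.04 to 57.11 CPM. The 1 that fell, KRT18, led these sums, at 56.2 CPM in control and 48.5 CPM with vitamin C on average. The part of other cells in the rise of the interferon-stimulated genes was not tested. In bulk RNA, fewer cells with a transcript and less of it per cell cannot be told apart.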

How the data were processed

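Ribosome-depleted total RNA of A2058 cells was sequenced as paired reads. The submitters' notes list hg38, STAR, Trim Galore and CASAVA 1.4, and the study's methods name STAR and HTSeq with GENCODE v19. The strand setting was not given in the sources used here. The deposited values are raw read counts per gene for 60675 Ensembl identifiers in 6 samples, made by the authors with no normalization. Symbols, positions and exon lengths came from GENCODE 29 (57055 identifiers matched).

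The counts were filtered with filterByExpr (a CPM limit of 0.38), scaled by TMM and tested with edgeR 4.0.16 (quasi-likelihood, R 4.3.3, limma 3.58.1), with Benjamini-Hochberg adjustment over 16353 genes and a call at an adjusted p under 0.05. The scripts were tested on simulated data. TPM was computed from counts and exon length. DESeq2 1.42.0, limma-voom, other scalings and filters, the replicate block and leaving out each library were alternatives (14 in all).

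Members and lists were chosen with earlier results of these data known. All members are named. Those called are given by library, and of other pathway genes the 10 with the smallest p, beside ligands and signalling kinases, the latter chosen after their values were seen. Other pathway genes whose calls were lost in alternatives are named too, and IFIT1B is named for its position. The promoter windows of 16 members (DHX58, CGAS, STING1, IFNAR2, IRF2, IRF3, IRF7, IFIT2, OAS2, OASL, IFITM2, MX2, GBP2, USP18, TRIM22 and CCL5) were not analysed here. Of 40 windows, 38 had their downstream bases in a GENCODE transcript of the gene.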

Additional observations from a re-analysis of the deposited data

How the results depend on the processing

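Of the 23 members called, 17 kept the call under each of the 14 alternatives that gave a value. OAS1, ISG20, MX2, GBP1, SAMD9 and DTX3L lost it in at least 1, and IFI6 gained it without a filter on low counts. No called member and no other pathway gene called in the main fit changed direction. The log2 fold changes of 9 members that were not called crossed 0 in at least 1 alternative (STING1, IFI16, IFNAR1, IFNAR2, IFNGR1, IFNGR2, IRF1, IRF2 and GBP2), and those values were at most 0.12 in size. Without 1 library at a time, adjusted p (edgeR) reached 0.105 for OAS1 and 0.123 for ISG20, each not called in 5 of 6 fits (called without vitamin C replicate 3 and without vitamin C replicate 1, respectively). It reached 0.186 for MX2 and 0.162 for SAMD9, called only without vitamin C replicate 3, 0.149 for DTX3L, also called only without that library, and 0.09 for GBP1, which missed the threshold when control replicate 1, control replicate 2 or vitamin C replicate 1 was absent. MX2 and SAMD9 also lost the call with upper quartile scaling, MX2 without a filter, and OAS1 and ISG20 with DESeq2. Among the other pathway genes called higher, the call was lost in 9 alternatives for PARP12, 8 for XAF1 and 6 for UBE2L6. It was lost in 5 for PSME1, 4 for LAP3 and 3 for CMPK2. HERC5, HERC6, IKBKE, TRIM21 and SAMHD1 also lost theirs in at least 1. Leaving out 1 library at a time gave 17 to 21 members higher and 0 to 1 lower, and with DESeq2 0 members were lower. Over the same 6 fits, 11 to 22 other pathway genes were higher and 0 to 1 lower, 964 to 2095 of all genes were called (549 to 1184 higher and 411 to 911 lower), and the members' median log2 fold change was 0.20 to 0.28. The fewest calls over all genes came without control replicate 3 (964), and counts also fell by over 1.5 times without control replicate 1 (1092), control replicate 2 (977) or vitamin C replicate 2 (1136). The cause was not tested. Over the scalings tried, 48.1% (upper quartile) to 59.4% (library size) of calls were higher, against 54.5% with TMM.

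The replicate numbers were not taken to pair the wells: same-numbered wells correlated at 0.129, -0.0355 and 0.103, and not every well correlated best with its own number. With the replicate number as a block, 1913 genes were called in all, 22 members were higher and 1 lower, and 1 other pathway gene was lower. Without vitamin C replicate 3, 1 other pathway gene was lower as well. TRIM5 (named after its values were seen) had the lowest log2 fold change of that list in the main fit, -0.25. It was not called there (adjusted p = 0.0719 in edgeR's test). Depth limits OAS2, OASL, IRF9, IFITM1 and CXCL10 most, with few counts per library.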
